A study of Mus musculus with 2 samples.

Results

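The Igf2r and Airn domain is an imprinted cluster on proximal mouse chromosome 17. Its 5 genes examined here (Igf2r, Airn, Slc22a2, Slc22a3 and Mas1) were taken by name from a table of 48550 genes, in which each had 1 row. The table gives nuclear RNA of F121-6 cells, a female hybrid mouse embryonic stem (ES) cell line carrying 1 chromosome set of the 129 strain and 1 set of Mus musculus castaneus (cas). The samples form 1 untreated group of 2 libraries from this 1 line, grown in serum medium with LIF on fibroblasts (MEFs) inactivated with mitomycin C, and in each library the reads of a gene were split by allele. The libraries held 28523744 and 31402765 allele-assigned reads, of which 53.6% and 54.2% came from 129. Neither the maternal strain of the cross nor the strain of the feeder fibroblasts is labelled, so alleles are named by strain and not by parent. Separate cultures are not mentioned for the libraries, and p-values may measure technical spread alone.

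Imprinted genes are expressed from the chromosome inherited from 1 parent. Igf2r encodes the receptor that binds insulin-like growth factor 2 for degradation and carries mannose 6-phosphate tagged enzymes to lysosomes. In most mouse tissues it is expressed from the maternal chromosome, while Airn, a long noncoding RNA that starts inside Igf2r and runs against it, is expressed from the paternal chromosome and silences Igf2r there. In undifferentiated ES cells Igf2r is known to be expressed from both chromosomes, and imprinted expression arises as Airn is induced during differentiation. Slc22a2 and Slc22a3 encode organic cation transporters and are known as imprinted in the placenta. Mas1 encodes a receptor for angiotensin fragments.

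Igf2r lies on the minus strand at chr17:12682406-12769664 and Airn on the plus strand at chr17:12741311-12860136 (build mm10, annotation GENCODE M21). Airn starts in intron 2 of Igf2r, so the genes share 28.4 kb that holds 2 of the 48 Igf2r exons. At its other end Airn overlaps Mas1 (chr17:12841079-12868143, minus strand) over 19.1 kb. Slc22a2 (chr17:12584132-12628488, plus strand) and Slc22a3 (chr17:12418960-12507704, minus strand) lie on the other side of Igf2r.

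**Figure D1:**
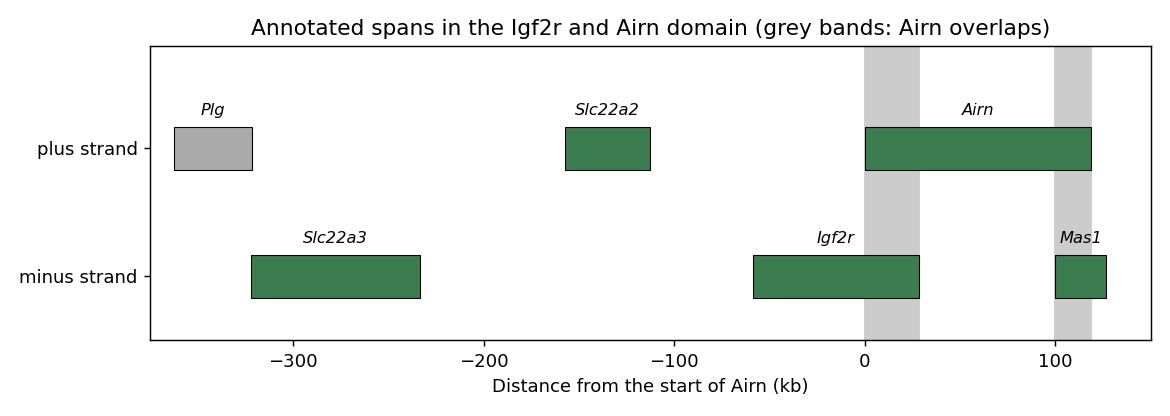
Annotated gene spans by strand against the distance from the start of Airn in kb. Green bars are the 5 genes examined and the grey bar is Plg, the plasminogen gene, and the shaded bands mark where Airn overlaps Igf2r (28.4 kb) and Mas1 (19.1 kb).

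Because these genes overlap, it matters which reads the table counted for them. Across the table, genes annotated wholly inside another gene had almost no reads, whatever their strand. Of 4481 such genes whose overlapping genes all lie on the opposite strand, 99.5% were at 0 reads, and of 4145 whose overlapping genes lie on the same strand, 99.3% were at 0, against 46.7% of 26649 genes with no overlapping gene. The ES cell marker Sox2, a pluripotency factor gene annotated wholly inside another gene, was among those at 0. Among longer genes overlapped in part from the opposite strand, the median fell from 31.2 reads per kb where up to 10% of the span was overlapped to 0.095 where over 90% was. As far as these counts show, reads in overlapped stretches were left out on either strand. Those given below for Igf2r would then come from its 58.9 kb beyond the Airn start, and those for Airn from 69.4 kb outside Igf2r, Mas1 and smaller genes. No value separates the strands within these stretches, so sense and antisense reads there cannot be told apart.

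The promoters of Igf2r and Airn, the 2 members with enough reads to test, are shown because these starts define the opposed transcripts. Within the windows given below they differ in CpG content, the dinucleotide at which DNA methylation marks imprinted control regions. Sequences are RefSeq promoters (build GRCm38.p6) from 250 bases before to 50 after the gene's start, in the direction of transcription, with each CG, which reads the same on both strands, in capitals.
Igf2r promoter: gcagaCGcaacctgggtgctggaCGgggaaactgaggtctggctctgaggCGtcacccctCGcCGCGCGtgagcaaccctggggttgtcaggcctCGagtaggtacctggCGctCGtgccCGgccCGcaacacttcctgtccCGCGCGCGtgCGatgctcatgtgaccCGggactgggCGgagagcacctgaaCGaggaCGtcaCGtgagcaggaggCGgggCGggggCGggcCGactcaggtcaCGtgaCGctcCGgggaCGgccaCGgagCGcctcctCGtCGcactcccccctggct
Airn promoter: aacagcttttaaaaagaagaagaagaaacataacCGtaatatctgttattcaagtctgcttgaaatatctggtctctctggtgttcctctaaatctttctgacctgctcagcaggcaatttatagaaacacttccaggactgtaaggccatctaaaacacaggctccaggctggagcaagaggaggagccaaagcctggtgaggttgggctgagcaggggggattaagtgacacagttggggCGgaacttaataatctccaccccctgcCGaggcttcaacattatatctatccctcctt

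The Igf2r promoter (chr17:12769657-12769956, minus strand) held 34 CG in 300 bases, and 7.73% of 32851 RefSeq promoters of that length held at least as many. The Airn promoter (chr17:12741061-12741360, plus strand) held 3, and 76.7% of promoters held at least as many. The median promoter held 7. The promoters of Slc22a2, Slc22a3 and Mas1 held 8, 5 and 2. Each count covers its 300 bases only, and sequence farther into the genes was not counted. Where the imprinted control region of the domain lies was therefore not tested. All 5 genes matched by symbol.

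Igf2r RNA came from both alleles, with more reads from 129. Library 1 had 1418 reads from 129 and 703 from cas, and library 2 had 2042 from 129 and 772 from cas. In each library the 129 count was the higher. The 129 share was 66.9% in library 1 (exact 95% interval 64.8 to 68.9) and 72.6% in library 2 (70.9 to 74.2), or 69.7% ± 4.04 (SD, n = 2). The intervals, here and below, cover counting error only. Scaled to the typical gene, the log2 ratio of 129 to cas was 0.88 (SE 0.10, a 1.84-fold excess), 0.71 in library 1 and 1.04 in library 2, with an adjusted p = 1.04e-18 in limma with Benjamini-Hochberg adjustment over 15509 tested genes. Allelic differences of this kind were common: at an adjusted p under 0.05, 43.9% of tested genes were called, with 21.9% of tested genes called toward 129 and 22.0% toward cas. Of the 5 members 2 were tested, Igf2r and Airn, and both were called toward 129. Both also passed an exact binomial test in each library in 1 direction, as did 44.8% of tested genes. That test was set against the 129 share of all reads (53.6% and 54.2%) and not against the typical gene. Scaled by the totals of the deposited columns, the median log2 ratio of all tested genes was 0.10, so this baseline is the lower one. A ratio at least as large as that of Igf2r was found for 14.4% of tested genes.

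Airn, the noncoding RNA, was also found from both alleles, with a smaller excess from 129. Library 1 had 510 reads from 129 and 371 from cas, and library 2 had 939 and 432. The 129 share was 57.9% in library 1 (exact 95% interval 54.5 to 61.2) and 68.5% in library 2 (66.0 to 70.9), or 63.2% ± 7.50 (SD, n = 2). The excess over the share of all reads was thus smaller in library 1. The log2 ratio was 0.46 (SE 0.13, a 1.37-fold excess), with a limma adjusted p = 0.00175. This SE and p rest on a spread pooled over genes and give no weight to the spread of Airn itself. The log2 ratio was 0.16 in library 1 alone and 0.76 in library 2 alone, so its size rested on library 2. The call was lost when the pairing of alleles by library was left out (no replicate block, limma adjusted p = 0.143). A ratio at least as large was found for 25.3% of tested genes.

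**Figure D2:**
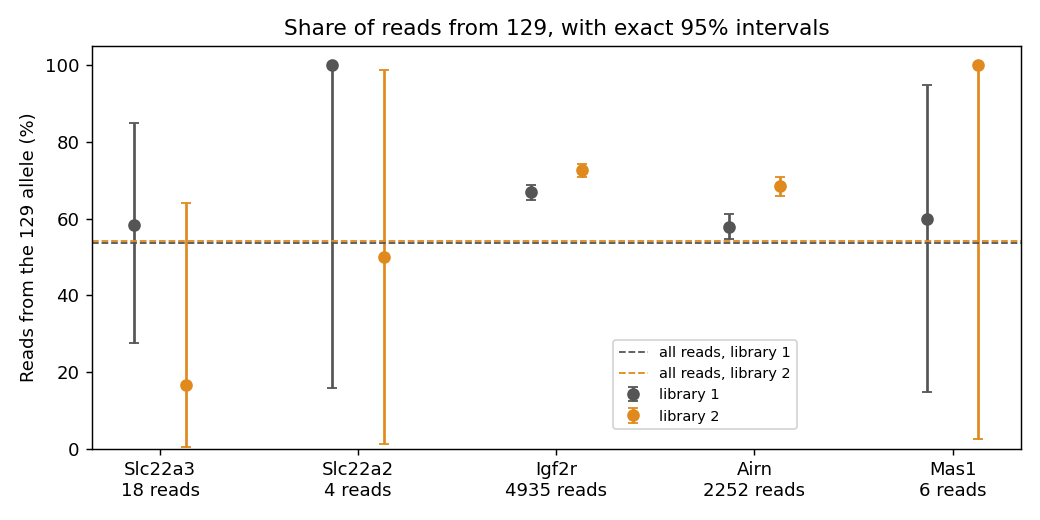
Share of reads from the 129 allele in percent for the 5 genes, in library 1 (dark) and library 2 (orange), with exact 95% intervals; dashed lines are the share over all reads of each library. Igf2r (66.9% and 72.6%) and Airn (57.9% and 68.5%) lie above the lines, and the genes with few reads have intervals too wide to place them.

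The share from 129 was higher for Igf2r than for Airn in each library, by 8.97 percentage points in library 1 (Fisher's exact test on the reads, two-sided, odds ratio 1.47, adjusted p = 8.26e-06 over the 2 comparisons) and 4.08 points in library 2 (odds ratio 1.22, adjusted p = 0.00708). Both genes leaned toward the same allele, and the reads of neither came from 1 allele only. Per kb outside overlapped stretches, Igf2r had 36.0 reads in library 1 and 47.8 in library 2, and Airn 12.7 and 19.8. Reads that carry no difference between the strains are not counted, so these densities also depend on how many such differences each stretch holds.

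The libraries differed by more than counting error for both genes. The 129 share was 5.71 points higher in library 2 for Igf2r (Fisher's exact test on the reads, two-sided, adjusted p = 1.67e-05 over the 2 genes) and 10.6 points higher for Airn (adjusted p = 6.87e-07). Such differences were not rare, as 26.1% of the 6939 tested genes with 500 or more reads per library had an adjusted p under 0.05 in the same test over all of them. In size, the difference between the libraries' log2 ratios was 0.33 for Igf2r, reached by 14.3% of those genes, and 0.60 for Airn, reached by 2.62%, against a median of 0.13.

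**Figure D3:**
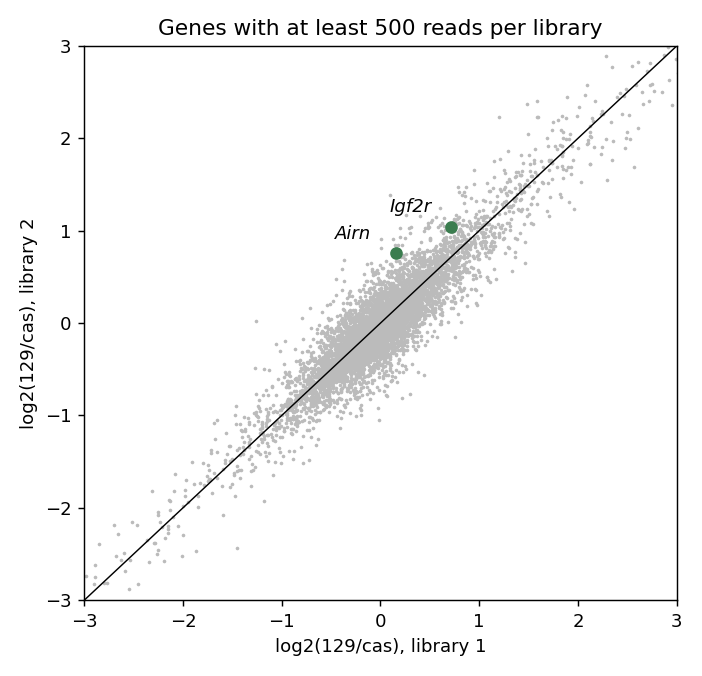
The log2 ratio of 129 to cas in library 1 against library 2 for 6939 genes with 500 or more reads per library (grey), with the line of equality; 73 genes lie outside the axes. Igf2r and Airn (green) lie above the line, Airn farther from it than Igf2r.

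The higher share in library 2 went with more 129 reads and not with fewer cas reads. In CPM, reads scaled to the sum of all reads of the same allele and library, Igf2r had 92.7 from 129 in library 1 and 120.1 in library 2, a 1.30-fold difference (exact 95% interval 1.21 to 1.39). From cas it had 53.2 and 53.6, a ratio of 1.01 (0.91 to 1.12). Airn had 33.3 and 55.2 from 129, a 1.66-fold difference (1.49 to 1.85), and 28.1 and 30.0 from cas, a ratio of 1.07 (0.93 to 1.23). The median gene with at least 500 reads had a ratio of 1.04 from 129 and 1.03 from cas. A 129 ratio at least as large as that of Igf2r was found for 8.59% of these genes, and one as large as that of Airn for 0.375%.

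**Figure D4:**
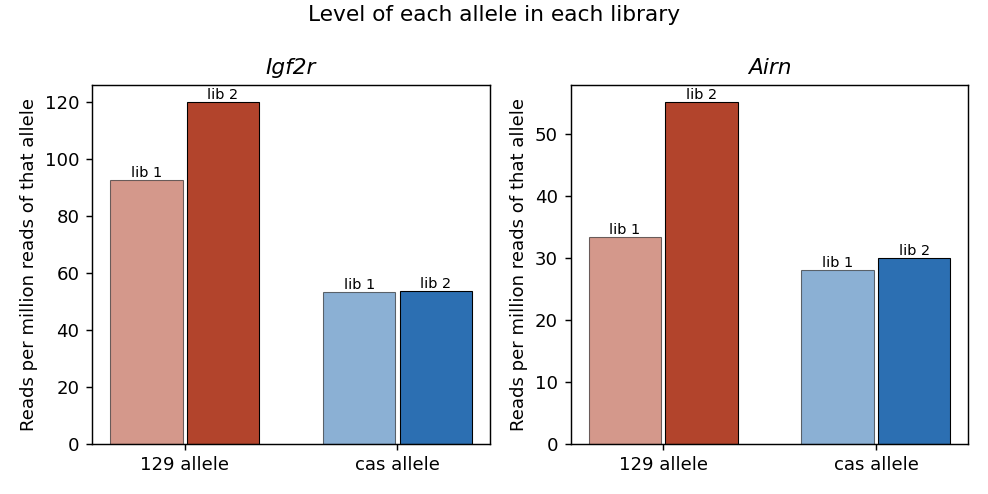
CPM of Igf2r and Airn, scaled to all reads of the same allele, for the 129 allele (red) and the cas allele (blue), with library 1 in pale and library 2 in full colour; each bar is 1 library. From 129, both genes were higher in library 2 (Igf2r 120.1 against 92.7, Airn 55.2 against 33.3), while from cas they were near each other (53.6 against 53.2, and 30.0 against 28.1).

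Reads of fibroblast markers were present and leaned to 129. Of the 30 listed fibroblast markers, 26 had reads and 25 were tested, with 20 called toward 129, 0 toward cas and 5 not called (median log2 ratio 1.58, against -0.00 over all tested genes). Summed as CPM of a whole library, the list had 1461 from 129 and 771 from cas in library 1, and 1594 and 728 in library 2. Its 129 share was 65.5% and 68.6%. The summed share was also higher in library 2 for markers of ES cells (53.0% and 53.2%), primitive endoderm (49.2% and 51.7%) and trophoblast (51.1% and 51.5%). Log2 ratios of the tested fibroblast markers ran from -0.21 (Tagln) to 7.38 (Bgn), so the summed share depends on the mix. By single fibroblast markers the pattern was mixed: the 129 share was higher in library 2 for 13 of the 25, and the list's median ratio was 1.93 in library 1 and 1.62 in library 2. Lum and Twist1, which no gene overlaps, were at 0, as were the overlapped Timp3 and S100a4. Of the 18 ES cell markers, 17 were tested, with 1 called toward 129, 9 toward cas and 7 not called (6 and 1 called with 1 shared library size), and their summed CPM was 3858 and 3710. Of 12 markers of primitive endoderm 10 were tested, with 3 called toward 129 and 2 toward cas (5 and 1 with 1 shared library size). Of 10 of trophoblast 8 were tested, with 1 and 2 (2 and 0 with 1 shared library size). The summed CPM was 697 and 755 for primitive endoderm, and 115 and 154 for trophoblast. The 129 share was higher in library 2 for 11 of the 17 tested ES cell markers, 8 of the 10 of primitive endoderm and 8 of the 8 of trophoblast, against 54.8% of all tested genes; the part of these cell types in the shift of Igf2r and Airn was not tested. Fibroblasts are known to express Igf2r and Airn, and the part of feeder RNA in the ratios of both genes was not tested. In bulk RNA fewer cells of a type and less RNA per cell cannot be told apart.

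The other members had too few reads to be tested. The reads minimum was 20 in each library. Slc22a3 had 7 reads from 129 and 5 from cas in library 1, and 1 and 5 in library 2. Over both libraries 8 of its 18 reads came from 129, or 44.4% (exact 95% interval 21.5 to 69.2), so the direction could not be told at this depth. Slc22a2 had 2 reads from 129 and 0 from cas in library 1, and 1 of each in library 2. Its pooled share of 75.0% had an interval of 19.4 to 99.4. Mas1 had 3 reads from 129 and 2 from cas in library 1, and 1 and 0 in library 2, a pooled share of 66.7% (22.3 to 95.7). Mas1 is overlapped over 70.8% of its span, which leaves 7.89 kb of its own. Per kb outside overlapped stretches, the pooled libraries gave 0.20 reads for Slc22a3, 0.09 for Slc22a2 and 0.76 for Mas1, against 83.8 for Igf2r and 32.5 for Airn. With these few reads the allelic use of the 3 genes could not be measured.

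The genes around the domain did not share 1 direction. Within 1 Mb of the Airn start the table held 39 other genes, of which 17 were at 0 reads and 11 were tested. Of these, 1 was called toward 129, 3 toward cas and 7 in neither direction, so that 36.4% were called against 43.9% of all tested genes, with a median log2 ratio of -0.01. With 1 shared library size 2 were called toward 129 and 2 toward cas, and the median was 0.31.

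On the other side of Airn the first tested gene lay 169 kb from its start, measured between the centres of the 5000 bp windows that the table places around gene starts. This was Pnldc1, a nuclease-like gene of the germ line, which had a log2 ratio of -0.26. The chaperonin subunit gene Tcp1 had 0.02, from 0.42 in library 1 and -0.38 in library 2. The mitochondrial ribosome gene Mrpl18 had -0.01, from 0.40 and -0.42, so that in both genes the libraries differed in sign. The ratio of Acat3 was -0.26, and none of these 4 was called; those of Pnldc1, Acat3 and Mrpl18 turned positive with 1 library size shared by both alleles. Acat2, a thiolase, was higher from cas (-0.74, SE 0.16, limma adjusted p = 1.65e-05), as was Sod2, the mitochondrial superoxide dismutase (-0.55, SE 0.13, adjusted p = 0.000151). Between them lies Wtap, a subunit of the RNA methylation complex, which was higher from 129 (0.38, SE 0.09, adjusted p = 0.000168), from 0.59 in library 1 and 0.16 in library 2. On the far side of the transporter genes, the kinase gene Map3k4 had 0.12 and the long noncoding RNA 4732491K20Rik 0.62 (-0.18 in library 1 and 1.43 in library 2), neither called, and the acyltransferase gene Agpat4 was higher from cas (-0.77, SE 0.06, adjusted p = 5.24e-34). With 1 shared library size the log2 ratios of Sod2 and Map3k4 were -0.22 and 0.45. The 129 share was higher in library 2 for 4 of the 11 genes, against 54.8% of all tested genes.

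**Figure D5:**
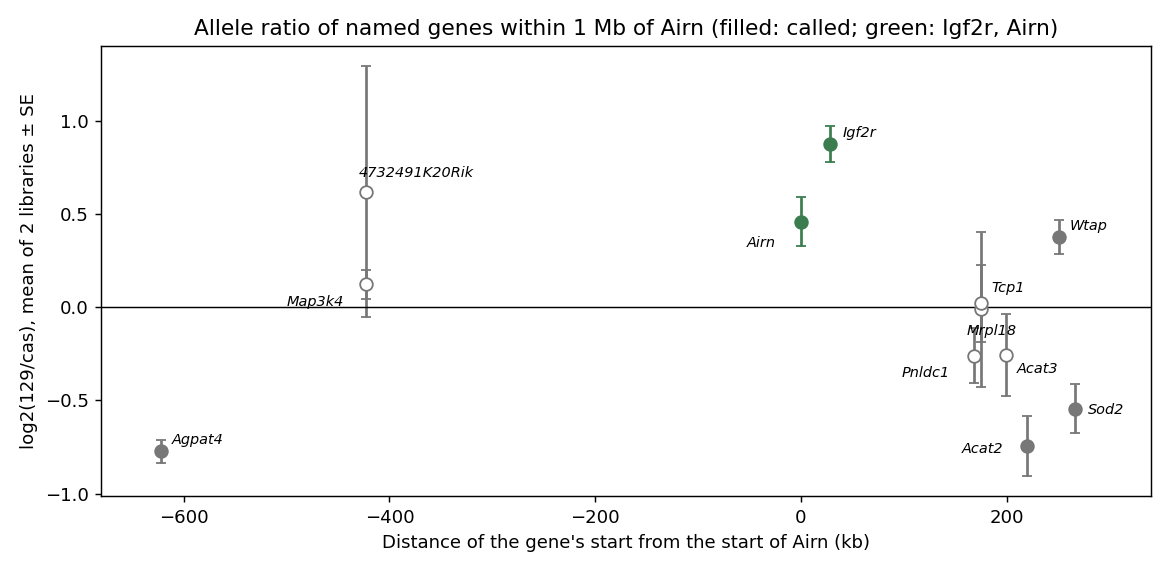
The log2 ratio of 129 to cas (mean of 2 libraries, bars ± SE) against the distance in kb between the deposited windows around a gene's start and that of Airn, for the tested neighbours named in the text (grey) and Igf2r and Airn (green); filled points were called. Igf2r (0.88) has the highest ratio shown, and Agpat4, Acat2 and Sod2 lie below 0.

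Likeness of pattern was measured as the distance between genes in the plane of the log2 ratios of the 2 libraries, over 6665 candidates with 500 or more reads per library, leaving out by symbol predicted genes (Gm, Rik), pseudogenes and genes of microRNAs and small nucleolar RNAs. Nearest to Igf2r were Fam102b (ratio 0.86), the nuclear long noncoding RNA Neat1 (0.89), Csmd3 (0.90) and Enc1 (0.86), at distances of 0.029 to 0.045 on the log2 scale. Nearest to Airn were Trmt10a (0.48), the adenylyl cyclase gene Adcy2 (0.46), the potassium channel subunit gene Kcnab1 (0.48) and Chmp4b (0.48), at 0.057 to 0.076. With 2 ratios per gene, such a match describes the ratios only. None of these genes lies on chromosome 17.

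Genes that act with Igf2r were found in both directions. The shares of called genes in the lists below are to be read against 43.9% of all tested genes, with 21.9% toward 129 and 22.0% toward cas. Of 15 genes of the insulin-like growth factor axis, 14 were tested, with 3 called toward 129, 7 toward cas and 4 not called (71.4% called, median -0.21); with 1 shared library size 6 were called toward 129 and 4 toward cas, and the median was 0.12. The receptor gene Igf1r had 0.07 without a call, the insulin receptor gene Insr -0.58 (SE 0.08), the carrier protein gene Igfbp2 -0.47 (SE 0.06) and the RNA-binding protein genes Igf2bp2 -0.60 (SE 0.05) and Igf2bp3 0.02, the latter without a call. The ligand gene Igf2 had 8 reads in library 1 and 3 in library 2, all from 129, and was not tested. Of 21 genes for the sorting of lysosomal enzymes by mannose 6-phosphate, 7 were called toward 129, 5 toward cas and 9 in neither direction (57.1% called, median 0.15); with 1 shared library size these counts were 14 and 1. M6pr, the other receptor for that tag, was higher from 129 with 62.2% ± 1.22 (SD, n = 2; log2 ratio 0.39, SE 0.10, limma adjusted p = 0.000656). The retromer subunit gene Vps35 had -0.30, which was 0.03 with 1 shared library size, and the adaptor genes Ap1g1 (0.08) and Gga2 (-0.16) were not called.

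The families of the other members were measured thinly. Of 11 listed Slc22 transporter genes, 8 were tested, with 3 called toward 129, 0 toward cas and 5 not called (37.5% called, median 0.34); with 1 shared library size 5 were called toward 129 and 0 toward cas, and the median was 0.66. Slc22a23 had the most reads and a log2 ratio of 0.02, and the carnitine transporter gene Slc22a5 had 0.33, neither called. Slc22a4, an ergothioneine transporter, had 87.6% ± 7.44 of its reads from 129 (n = 2), and Slc22a21 had 61.5% ± 0.41. Of 12 renin-angiotensin genes, 6 were tested, with 3 called toward cas and 3 not called (50.0% called). The calls included Mme and Atp6ap2, with log2 ratios of -0.38 and -0.33, while Anpep (0.48) and the receptor gene Agtr1b (-0.05) were not called; with 1 shared library size 0 of the 6 were called toward cas and 1 toward 129, and the ratios of Mme and Atp6ap2 were -0.06 and -0.00. Among 19 genes tied to imprint maintenance and to silencing of the Airn type, 3 were called toward 129, 9 toward cas and 7 in neither direction (63.2% called, median -0.12), but with 1 shared library size 9 were called toward 129 and 3 toward cas. By reads its leading genes were the Polycomb genes Suz12 (-0.21, which was 0.12 with 1 shared library size) and Eed (-0.46), the histone methyltransferase gene Ehmt1 (0.13) and the DNA methyltransferase gene Dnmt1 (-0.02). Ehmt2, a histone methyltransferase known to act with Airn in the placenta, had -0.64 (SE 0.17), and Zfp57, a protein that protects imprints, 0.60 (SE 0.19).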

How the data were processed

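Per the labels' protocols, strand-specific libraries of total nuclear RNA were sequenced as 100 bp paired-end reads and merged with earlier reads; per the submitters' processing notes Bowtie2 and build mm10 were used. The counting program, the SNP set, the annotation and whether counting used strand were not given in the sources used here. How evenly reads of both alleles map was not tested, so allele shares are shares of assigned reads. RPKM values, which the file headers call counts, were deposited by the authors per allele and library. Value times the deposited row length (bp, unit other) gave whole reads for 100% of values (tolerance 0.01 read). These lengths do not match the genes (2873 bp for Igf2r, which spans 87.3 kb), so RPKM levels were not used.

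Reads were scaled to CPM with trimmed means (TMM) and tested as log2(CPM + 0.1), which understates changes of low genes, in limma 3.58.1 (R 4.3.3), with trended variances, library as a block, allele as the tested term, at least 20 reads in each library and no Y chromosome. The design assumed this for RPKM. The block follows from both alleles of a library sharing 1 RNA; the alleles' deviations between libraries had r = 0.09 over all 15509 tested genes and r = 0.32 over the 11446 with at least 100 reads in each library. In the main fit SEs and limma p-values rest on a spread pooled over genes, with no weight on a gene's own spread between libraries. PCR copies were not told apart, so intervals and Fisher's tests cover counting error only. The code was tested on simulated data with all columns drawn independently, which checks the code and not how well the calls hold in these libraries. Spans come from GENCODE M21, matched for 95.6% of rows. Named genes were the 5 members, tested neighbours within 1 Mb, the 4 genes most like Igf2r and Airn, and up to 4 genes of most reads per list; cell type markers are given as sums, and Insr, Igf2, M6pr, Ehmt2, Zfp57, Sox2 and the fibroblast markers at 0 were chosen after their values were seen. Some genes that this rule names are not reported here, though the counts include them. Members and lists were chosen with earlier results of these data known. Alternatives are given in the closing section.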

Additional observations from a re-analysis of the deposited data

How the results depend on the processing

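The call of Igf2r toward 129 was kept under 8 of 8 alternatives with a test (another scaling, pseudocount, reads minimum or test, or no block), with log2 ratios of 0.87 to 1.21 and adjusted p of 7.67e-34 to 0.00138. That of Airn was kept under 7 of 8 (0.45 to 0.79), with adjusted p from 2.68e-08 to 0.143; with no replicate block the ratio stayed 0.46 and the call was lost (adjusted p = 0.143). The count over all genes fell from 6809 to 3954 with no replicate block (the cause was not tested). Without 1 library (a value with no test) Igf2r ranged from 0.71 to 1.04, Airn from 0.16 to 0.76, Slc22a2 from -0.14 to 1.20, Slc22a3 from -1.55 to 0.15 and Mas1 from 0.18 to 0.63. The log2 value of Slc22a2, with 4 reads, was 0.53 and became 0.077 with a pseudocount of 1 and 1.75 with 0.01. That of Slc22a3, with 18 reads, was -0.70 and became -0.15 and -1.15. That of Mas1, with 6 reads, was 0.41, and became 0.060 with a pseudocount of 1 and 1.49 with 0.01. Called neighbours numbered 4, and 3 to 5 under the alternatives, but their directions moved with scaling. In the main fit 1 was called toward 129 and 3 toward cas, with 1 shared library size 2 and 2, and with the deposited column totals 2 and 3. With 1 shared library size the median of all genes moved from -0.00 to 0.32 and 81.3% of 7997 calls were higher from 129, against 50.0% of 6809. Scaling by the totals of the deposited columns gave 0.10 and 61.9%. Depth limits Slc22a2, Slc22a3 and Mas1: no allelic preference could be measured for them.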
